A study of Mus musculus with 2 samples.

Results

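The transcripts of 10 Wnt ligand genes (*Wnt2*, *Wnt2b*, *Wnt4*, *Wnt5a*, *Wnt5b*, *Wnt6*, *Wnt7a*, *Wnt7b*, *Wnt9a* and *Wnt10a*) were examined in the optic nerve of control and *Tcf7l2*ΔHMG mice. They were chosen by gene symbol, and all 10 were present among the 23951 symbols listed in both libraries. RNA-seq was carried out on 1 library per genotype, from nerves taken at postnatal day 12 (P12). The control genotype was Tcf7l2 c/+; OLig1-cre and the mutant genotype Tcf7l2 c/c; OLig1-cre, so both carried the Cre driver and at least 1 floxed *Tcf7l2* allele, and the control was heterozygous rather than wild type. The floxed exon encodes the HMG box with which Tcf7l2 binds DNA, and Cre is driven from the *Olig1* gene in the oligodendrocyte (OL) lineage, so that other cells of the nerve would keep the exon. The number of animals behind each library is not given in the sources used here. As there were no replicates, no difference was tested, and the only error available is the Cufflinks interval, which reflects the sampling of fragments in a single library and leaves out differences among animals.

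Wnt proteins are secreted glycoproteins that are acylated by Porcn in the endoplasmic reticulum, carried to the cell surface by Wls, and bound there by Frizzled receptors together with coreceptors such as Lrp5 and Lrp6. Ligands of the β-catenin-dependent branch stabilise β-catenin, which then acts with TCF/LEF proteins, of which Tcf7l2 is one, whereas ligands such as Wnt5a and Wnt5b mostly act without β-catenin. In the central nervous system, sustained β-catenin signalling delays OL differentiation, and Wnt7a and Wnt7b act on blood vessels through Gpr124 and Reck.

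Levels are given in FPKM, the number of fragments per kilobase of transcript and per 1000000 mapped fragments, as the authors computed them. The control library held about 27623500 fragments and the mutant library 39937500, a depth at which 3 fragments on a 1 kb transcript correspond to 0.11 and 0.075 FPKM, respectively. Markers of OLs, astrocytes, microglia, endothelium and meningeal fibroblasts were present in both libraries, whereas none of 4 photoreceptor markers reached 1 FPKM in either. The deposited row for *Tcf7l2* itself stood at 17.8 FPKM in control nerve and 14.6 in mutant nerve. It covers the whole gene, so it does not check the excised exon.

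The start sites of 7 of the 10 ligands were found in the RefSeq promoter table (GRCm38.p6), with 9 start sites in all. *Wnt5a*, *Wnt7b* and *Wnt10a* had no entry. Sequence before 4 of the start sites is shown, for the 3 ligands with the largest difference between genotypes among those above 1 FPKM (*Wnt4*, *Wnt6* and *Wnt9a*) and for the *Wnt5b* start site with the only TCF/LEF core among the 9, the motif that Tcf7l2 and its relatives bind. Each is written 5′ to 3′ on the strand of its gene, and capitals mark the GC box GGGCGG on either strand and the TCF/LEF core CTTTGAT. The *Wnt4* sequence stops 146 bases before the RefSeq start site and that of *Wnt9a* 2 bases before it, where a GENCODE transcript already begins.
Wnt4 (chr4:137277385-137277488, plus strand): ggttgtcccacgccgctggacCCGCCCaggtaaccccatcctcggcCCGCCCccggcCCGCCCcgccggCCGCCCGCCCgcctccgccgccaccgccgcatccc
Wnt6 (chr1:74771642-74771891, plus strand): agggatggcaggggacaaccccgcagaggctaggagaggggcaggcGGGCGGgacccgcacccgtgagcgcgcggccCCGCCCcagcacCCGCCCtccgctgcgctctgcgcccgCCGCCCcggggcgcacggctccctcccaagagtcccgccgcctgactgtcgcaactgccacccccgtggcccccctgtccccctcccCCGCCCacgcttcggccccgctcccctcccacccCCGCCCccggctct
Wnt9a (chr11:59306680-59306927, plus strand): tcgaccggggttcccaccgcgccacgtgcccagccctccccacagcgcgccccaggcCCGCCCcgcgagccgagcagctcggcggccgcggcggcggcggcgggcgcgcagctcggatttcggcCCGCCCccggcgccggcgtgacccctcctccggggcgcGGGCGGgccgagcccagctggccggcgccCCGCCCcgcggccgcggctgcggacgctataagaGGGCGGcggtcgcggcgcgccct
Wnt5b (chr6:119449387-119449636, minus strand): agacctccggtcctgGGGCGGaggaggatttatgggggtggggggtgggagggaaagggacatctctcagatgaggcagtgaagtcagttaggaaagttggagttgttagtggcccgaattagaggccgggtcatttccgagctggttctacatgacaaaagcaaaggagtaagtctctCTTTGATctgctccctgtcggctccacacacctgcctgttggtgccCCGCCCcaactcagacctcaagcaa

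GC boxes were found in 8 of the 9 windows of 250 bases before the start sites, against 32.7% of 32851 such windows over all genes, counting both strands and overlapping matches. They did not separate the ligands by their difference between genotypes, as the *Wnt7a* window held 6 of them, as many as that of *Wnt6*, against 8 for *Wnt4*, counted over its whole window, and 5 for *Wnt9a*. The TCF/LEF core CTTTGAT, held by 3.21% of all windows, lay in 1 of the 9, where it began 71 bases before the *Wnt5b* start shown above. The Kaiso motif TCCTGCNA was also held by 1 window, before another *Wnt5b* start, against 4.03% of all windows. TATAAA was found in 0 of the 9 and in 12.4% of all. The CpG count was 44 for *Wnt4*, 28 for *Wnt6* and 48 for *Wnt9a*, compared with a median of 6 over all windows. It was also 36 for *Wnt2b*, 34 for *Wnt7a* and 35 for 1 of the *Wnt5b* windows, so a high count was not particular to the ligands past the cutoff. The GC content of the 9 windows ran from 53.2% for a *Wnt5b* window to 85.2% for *Wnt4*, against a median of 52.4% over all windows. Of the 250 bases, 212 for *Wnt2b*, 146 for *Wnt4* and 140 for *Wnt2* lay inside a GENCODE transcript, so these windows were not wholly upstream sequence. A match is only a match of letters, and binding was not measured in these libraries.

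Of the 10 ligands, *Wnt4*, *Wnt6* and *Wnt9a* had a higher level in *Tcf7l2*ΔHMG than in control nerve by more than 1.5-fold with intervals that did not overlap, and no ligand was lower by that much on the scale of the deposited FPKM, whereas 0 were higher and 2 lower if all rows of each library were scaled to the same sum. *Wnt2b*, *Wnt5a*, *Wnt5b* and *Wnt7b* were within the cutoff on the deposited scale, with log2 ratios of 0.10, −0.09, 0.35 and −0.02 (−0.51, −0.74, −0.31 and −0.68 with all rows scaled to the same sum), and *Wnt2*, *Wnt7a* and *Wnt10a* were scarcely detected. Cell numbers and RNA per cell cannot be told apart in whole nerve, nor can the cells that made each transcript. Log2 ratios of mutant to control were computed after 0.1 FPKM was added to both values, which understates the difference of low genes. A ratio was read for 14199 genes that reached 1 FPKM in at least 1 library, and among these 15.4% were higher in the mutant and 8.52% lower by over 1.5-fold. When the intervals also had to be apart, the shares were 13.6% and 7.42%. With all rows scaled to the same sum, 4.51% of the genes read were higher by over 1.5-fold and 52.1% lower. Of the 7 ligands that reached 1 FPKM, 3 were higher by over 1.5-fold, 0 lower and 4 within the cutoff on the deposited scale.

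**Figure D1:**
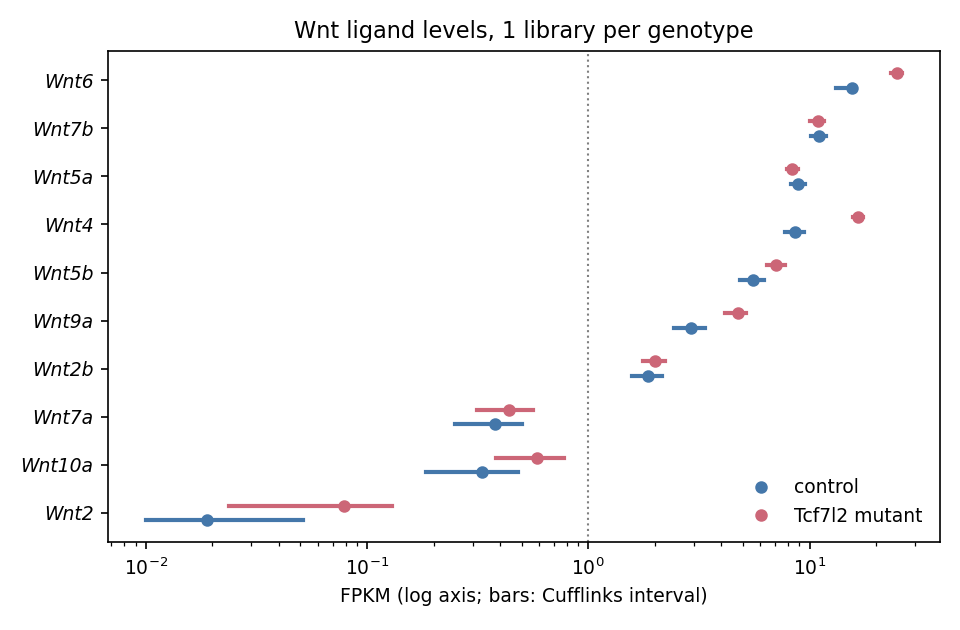
FPKM of each of the 10 Wnt ligands (log axis) in the control and the *Tcf7l2*ΔHMG library, with bars for the Cufflinks interval of each value. *Wnt6* was highest in both libraries (15.5 and 24.7 FPKM) and *Wnt2* lowest, and the lower bound of *Wnt2* in the control is 0, drawn at the axis limit of 0.01.

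*Wnt6*, a ligand of the β-catenin-dependent branch with roles in epithelial development, was the most abundant of the 10 in both genotypes. Its level was 15.5 FPKM in control nerve (interval 13.2 to 16.1) and 24.7 in mutant nerve (23.3 to 26.2). The intervals were apart, the log2 ratio was 0.67 and the fold 1.59, and the bounds of both intervals together allowed a fold from 1.45 to 1.99, so that the cutoff of 1.5 lay inside this range. The row spanned chr1:74818466-74831893 in the mm9 coordinates of the files, which are used for all rows named below. *Wnt10a*, a ligand known from teeth, hair and other skin appendages, is its neighbour on chromosome 1, with 6699 bases between the rows.

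*Wnt4*, which is needed for kidney and female gonad development, had the largest log2 ratio (0.93) of the 7 ligands that reached 1 FPKM. It stood at 8.63 FPKM in control nerve (7.73 to 9.45) and 16.5 in mutant nerve (15.7 to 17.4), a fold of 1.92 with a range from 1.66 to 2.25. The mutant interval lay entirely above that of the control, and the whole range was above the cutoff. Among the 10 ligands, *Wnt4* ranked below *Wnt6*, *Wnt7b* and *Wnt5a* in control nerve, with an interval that overlapped that of *Wnt5a*, and below *Wnt6* alone in mutant nerve. Of all 14199 genes read, 46.7% had a lower level than *Wnt4* in the control library and 65.9% in the mutant library. For *Wnt7b*, by comparison, these shares were 54.8% and 53.2%. The *Wnt4* row was chr4:136833550-136855416 (mm9), and in the mutant library only, a row without a gene name and with 6.35 FPKM lay within 5000 bases of it.

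*Wnt9a*, which acts in the β-catenin-dependent branch during joint and liver development, was lower in abundance but had a similar ratio. Its level was 2.91 FPKM in control nerve (2.44 to 3.36) and 4.76 in mutant nerve (4.17 to 5.14), with a log2 ratio of 0.69 and a fold of 1.64 (range 1.24 to 2.10). The intervals did not overlap, although the range of the fold included 1.5, and with a pseudocount of 1 the log2 ratio was 0.56, under the cutoff of 0.585. These values rest on about 266 and 631 fragments, and the row was chr11:59120432-59147054 (mm9).

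*Wnt5a* and *Wnt5b*, close relatives that act largely without β-catenin, differed in their ratios. *Wnt5a* (chr14:29318000-29340570 in the control) was 8.88 FPKM in control nerve (8.23 to 9.54) and 8.37 in mutant nerve (7.87 to 8.91), a log2 ratio of −0.09 with overlapping intervals. *Wnt5b* was 5.54 FPKM in control nerve (4.87 to 6.23) and 7.09 in mutant nerve (6.44 to 7.75). Its intervals were apart, but the fold of 1.28 (range 1.03 to 1.59) was under the cutoff. *Wnt5a* thus exceeded *Wnt5b* by 1.60-fold in the control and 1.18-fold in the mutant. The *Wnt5b* row, chr6:119382549-119494365 (mm9), has the row of *Fbxl14* within its span (4.19 and 4.63 FPKM), and whether fragments were shared between the rows is not known.

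*Wnt7b* (chr15:85365867-85415634 in the control), the more abundant of the pair of ligands that act on brain vessels, had a log2 ratio of −0.02 on the deposited scale and −0.68 with all rows scaled to the same sum. It measured 11.1 FPKM in control nerve (10.2 to 11.9) and 10.97 in mutant nerve (10.1 to 11.6). The interval bounds allowed a fold between 0.848 and 1.14, so that on the deposited scale fragment sampling alone did not span a 1.5-fold difference. *Wnt7a* (chr6:91313977-91361363) was 0.378 FPKM in control nerve (0.251 to 0.502) and 0.438 in mutant nerve (0.315 to 0.560), from about 33 and 56 fragments. It lay under 1 FPKM in both libraries, and its fold of 1.16 had a range from 0.629 to 2.23, so neither direction was resolved at this depth. *Wnt7b* exceeded *Wnt7a* by 29.4-fold in the control and 25.0-fold in the mutant.

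*Wnt2b* (chr3:104746468-104764627 in the control), a ligand known from the margin of the developing retina, was 1.86 FPKM in control nerve (1.57 to 2.15) and 2.002 in mutant nerve (1.77 to 2.23), with overlapping intervals and a fold of 1.08. Its locus was split in the files. Within 5000 bases of the named row or inside it lay 6 rows without a gene name in control nerve (1.56 to 8.42 FPKM) and 4 in mutant nerve (1.09 to 7.55 FPKM), and these were not added to it. *Wnt2* (chr6:17938940-17980445), its relative with a role in lung and vessel development, was 0.0189 FPKM in control nerve (0 to 0.0514) and 0.0786 in mutant nerve (0.0237 to 0.130). That is a fold of 4.15, from about 1 fragment against 7 (1.1 and 6.6 before rounding). The rounded numbers gave a ratio of 4.84 after depth with an exact 95% counting interval from 0.622 to 218, so no difference was detectable. *Wnt10a* (chr1:74838593-74850749) was 0.330 FPKM in control nerve (0.185 to 0.480) and 0.584 in mutant nerve (0.383 to 0.779), from about 18 and 46 fragments. Its fold of 1.77 had a range from 0.798 to 4.22 and its intervals overlapped.

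**Figure D2:**
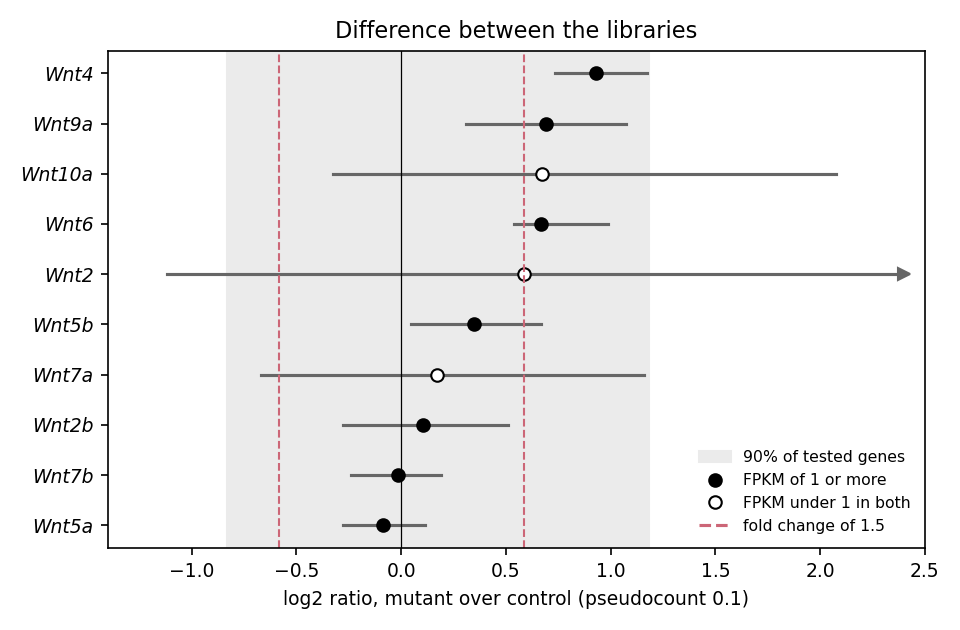
Log2 ratio of mutant to control FPKM (0.1 added to each) for each ligand, with bars for the range that the bounds of both Cufflinks intervals allow without that addition, filled points for ligands of at least 1 FPKM, and dashed lines at a fold of 1.5. The grey band runs from the 5th to the 95th percentile of all genes read (−0.83 to 1.18), and the points of all ligands lie inside it. *Wnt4*, *Wnt6* and *Wnt9a* lie beyond the upper line at 0.93, 0.67 and 0.69 on the deposited scale (0.26, 0.00 and 0.04 with all rows scaled to the same sum), while the low ligands *Wnt2* and *Wnt10a* have bars that extend across 0.

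Counted over all 10 ligands, the FPKM was higher in the mutant for 8 and lower for 2 (*Wnt5a* and *Wnt7b*), and the intervals were apart for 4, all of them higher in the mutant. With all rows scaled to the same sum, 5 log2 ratios were above 0 and 5 below, and that of *Wnt5b*, 1 of the 4, was −0.31. Intervals lay apart at any fold for 30.0% of the 14199 genes read in the higher direction and 22.4% in the lower. The median log2 ratio of the 10 was 0.47 on the deposited scale and −0.15 with all rows scaled to the same sum, and the medians over the 14199 genes read were 0.05 and −0.61. On the deposited scale the median was 0.35 for the ligands of at least 1 FPKM in both libraries, against 0.035 over all such genes. With a pseudocount of 1 the median of the 10 was 0.17, against 0.042 over all genes read. In total, the 10 ligands added up to 55.2 FPKM in control nerve and 75.6 FPKM in mutant nerve, 1.37-fold more (log2 ratio 0.45, or −0.22 with all rows scaled to the same sum). On the deposited scale *Wnt4* and *Wnt6* accounted for most of the difference, as they went from 24.2 to 41.3 FPKM together (1.71-fold), whereas the other 8 went from 31.0 to 34.3 FPKM (1.11-fold). With all rows scaled to the same sum, *Wnt4* and *Wnt6* had log2 ratios of 0.26 and 0.00, so the lower sum on that scale came from other ligands.

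The make-up of the ligand pool differed between the libraries mainly in the balance of its 4 leading members, and these shares do not depend on the scale. *Wnt4*, *Wnt5a*, *Wnt6* and *Wnt7b* together made up 80.0% of the summed FPKM of the 10 in control nerve and 80.2% in mutant nerve. Within this, the share of *Wnt4* and *Wnt6* was 43.8% in control nerve and 54.6% in mutant nerve. The share of *Wnt7b* was 20.1% and 14.5%, although its FPKM was nearly the same in both, and that of *Wnt5a* was 16.1% and 11.1%.

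**Figure D3:**
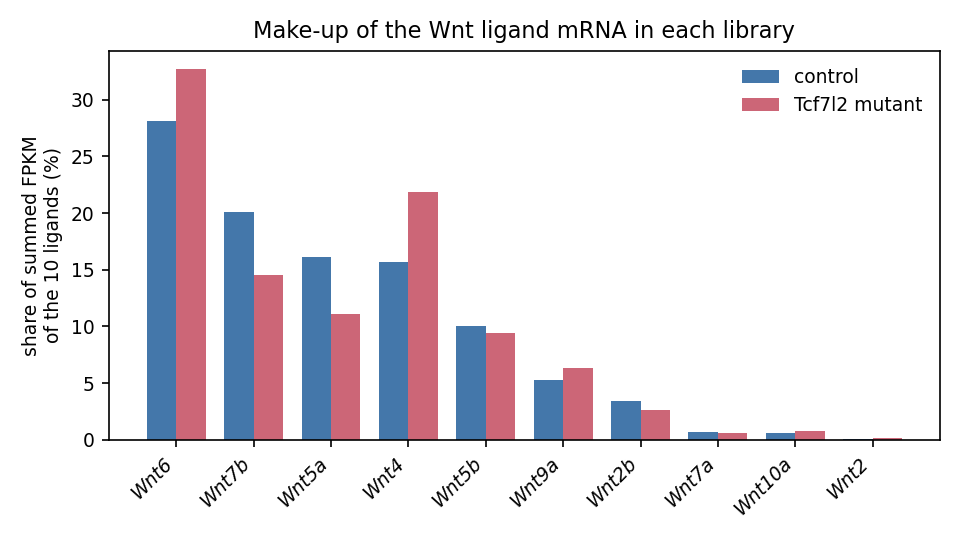
Share of each ligand in the summed FPKM of the 10 (percent) in the control and the mutant library. *Wnt4* took 15.7% in control nerve and 21.9% in mutant nerve, and *Wnt6* took 28.1% and 32.7%.

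The 10 made up 82.1% of the summed FPKM of all 19 Wnt ligands of the mouse in control nerve and 87.5% in mutant nerve, and the 9 others made up the rest. Of the 9, *Wnt1*, *Wnt3a* and *Wnt8a* were listed at 0 in both libraries, and 4 reached 1 FPKM. *Wnt11* (1.15 and 2.36 FPKM in control and mutant) and *Wnt16* (1.73 and 3.05 FPKM) were higher in the mutant by over 1.5-fold on the deposited scale, and 0 of these 4 were with all rows scaled to the same sum. *Wnt3* (5.07 and 2.47 FPKM) and *Wnt8b* (3.46 and 2.25 FPKM) were lower by over 1.5-fold on the deposited scale, and 2 of these 4 were with all rows scaled to the same sum. Over all genes read, 15.4% were higher and 8.52% lower on the deposited scale, against 4.51% and 52.1% on the other.

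The genes that make and export Wnt proteins did not pass the cutoff in either direction on the deposited scale, with 7 of 7 within it and a median log2 ratio of −0.31. With all rows scaled to the same sum 5 were lower by over 1.5-fold, as were 52.1% of all genes read. *Porcn*, the acyltransferase, was 18.5 FPKM in control nerve and 14.9 in mutant nerve, and *Wls*, the carrier, was 49.0 and 55.9. Both had intervals that were apart, in opposite directions.

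The receptors are given on the deposited scale, and with all rows scaled to the same sum no receptor or coreceptor was higher by over 1.5-fold and the median log2 ratio was −0.40 for the Frizzled receptors and −0.29 for the coreceptors, in place of 0.26 and 0.36. Of 10 Frizzled receptors, 3 were higher by over 1.5-fold and 0 lower on the deposited scale, where 15.4% of all genes read were higher and 8.52% lower. With all rows scaled to the same sum, 0 were higher and 2 lower, against 4.51% and 52.1% of all genes read. The 3 higher on the deposited scale were *Fzd2* (8.29 FPKM in control nerve and 16.7 in mutant nerve), *Fzd1* (14.9 and 24.9) and *Fzd7* (7.51 and 11.4). The coreceptors gave the same count, 3 higher and 0 lower of 8, and all 8 had the higher FPKM in the mutant. *Lrp5*, a coreceptor of the β-catenin branch, was 4.85 and 8.99 FPKM, whereas its relative *Lrp6* was 9.68 and 12.4 and stayed within the cutoff. *Gpr124*, through which Wnt7a and Wnt7b act on endothelium, was 19.9 FPKM in control nerve and 32.0 in mutant nerve, while its partner *Reck* was 7.57 and 9.38 and within the cutoff. *Ror1*, a receptor for Wnt5a, was 0.944 and 1.69 FPKM.

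Among secreted modulators, 3 of the 6 antagonists that reached 1 FPKM were higher by over 1.5-fold and 0 lower, against 0 higher and 1 lower with all rows scaled to the same sum. Of all genes read, 15.4% were higher and 8.52% lower on the deposited scale, and 4.51% and 52.1% on the other scale. The 3 higher antagonists were *Notum*, a Wnt deacylase (2.05 and 4.33 FPKM), and the decoy receptors *Sfrp4* (3.73 and 6.96) and *Sfrp1* (10.9 and 17.4). Of the R-spondins and Norrin, which raise Wnt signalling, 4 reached 1 FPKM and 2 of these were higher, namely *Rspo2* (0.658 and 1.41 FPKM) and *Rspo3* (8.01 and 13.2 FPKM). With all rows scaled to the same sum, 0 were higher and 1 lower. Genes that limit the pathway and genes that promote it were both among those past the cutoff on the deposited scale.

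Of 12 feedback and target genes, 10 reached 1 FPKM, of which 2 were higher by over 1.5-fold, 0 lower and 8 within, a share near the 15.4% of all genes read, against 1 higher and 2 lower with all rows scaled to the same sum. *Nkd1*, a feedback inhibitor, was 19.5 FPKM in control nerve and 47.9 in mutant nerve (log2 ratio 1.29), and *Rnf43*, a ligase that removes Frizzled from the surface, was 1.91 and 3.59. The median log2 ratio over the 12 was 0.16, or −0.46 on that scale. The 3 nuclear mediators were all within the cutoff, with *Tcf7l2* at a log2 ratio of −0.28.

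**Figure D4:**
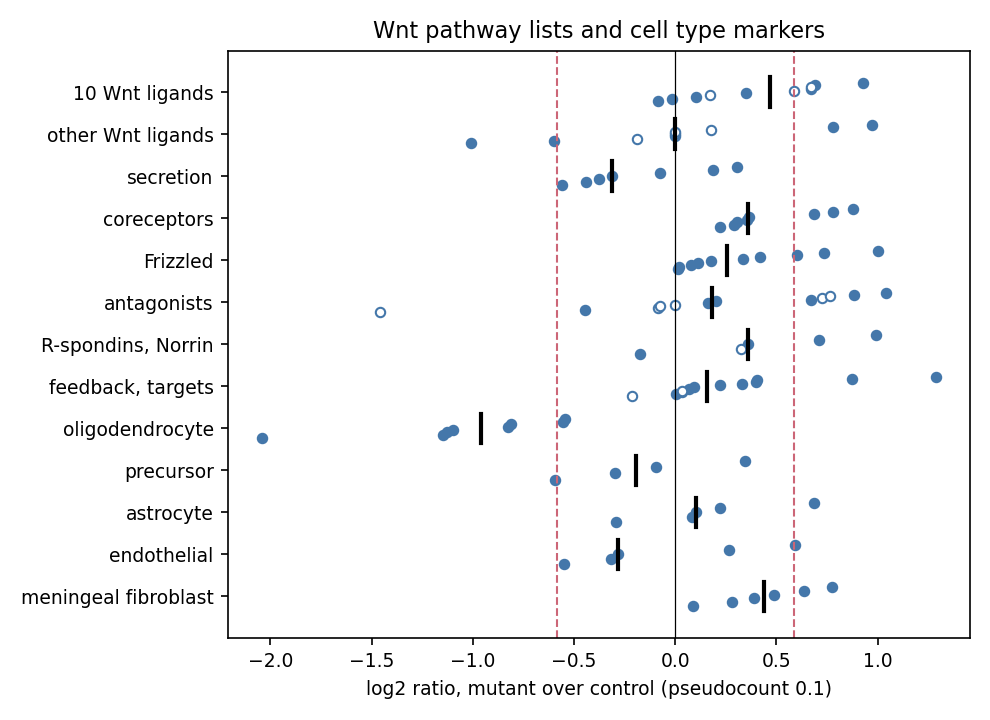
Log2 ratio of mutant to control FPKM on the deposited scale for Wnt pathway genes and markers of 5 cell types, with filled symbols for genes of at least 1 FPKM, open symbols for genes under 1 FPKM in both libraries, a black bar at the median of each list and dashed lines at a fold of 1.5. The median was 0.47 for the 10 ligands, −0.31 for the secretion genes, 0.44 for the meningeal fibroblast markers and −0.96 for the OL markers, and those of the ligands and the fibroblast markers were below 0 with all rows scaled to the same sum. Without the ligands under 1 FPKM, the ligand median was 0.35 on the deposited scale.

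Marker levels of several cell types were read beside those of the ligands. All 8 OL markers were lower in the mutant, 6 of them by over 1.5-fold, with a median log2 ratio of −0.96 (−1.63 with all rows scaled to the same sum) and summed levels of 30760 FPKM in control nerve and 17690 in mutant nerve. All 6 meningeal fibroblast markers were higher, although only 1 was so with all rows scaled to the same sum, and 2 passed the cutoff, *Dcn* (137 and 235 FPKM) and *Aldh1a2* (77.4 and 121 FPKM). Their median log2 ratio was 0.44, beside 0.47 for the 10 ligands (−0.23 and −0.15 with all rows scaled to the same sum), and their summed levels were 1124 and 1496 FPKM. For the 7 ligands that reached 1 FPKM, the median was 0.35 on the deposited scale. Astrocyte markers summed to 4832 and 5638 FPKM with 1 of 5 higher by over 1.5-fold, and endothelial markers to 111.6 and 99.8 FPKM with 1 of 5 higher. Of the endothelial markers, 2 had the higher FPKM in the mutant and 3 the lower. With all rows scaled to the same sum, 0 were higher in either list and 2 astrocyte and 3 endothelial markers were lower. Of all genes read, 15.4% were higher and 8.52% lower on the deposited scale, and 4.51% and 52.1% on the other scale. None of these 4 lists had a defining marker at 0 in either library. The part of these marker differences in the ligand levels was not tested.

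The ratios also depended on what each library was scaled to. Rows without a gene name made up 70.7% of all FPKM in control nerve and 80.7% in mutant nerve. If all rows of each library, unnamed ones included, were scaled to the same sum, the median log2 ratio of the 14199 genes moved from 0.05 to −0.61, 4.51% were higher by over 1.5-fold and 52.1% lower, and no ligand was then higher by over 1.5-fold. *Wnt4* kept a log2 ratio of 0.26, *Wnt6* was level at 0.00 and *Wnt9a* was 0.04, whereas *Wnt5a* (−0.74) and *Wnt7b* (−0.68) were lower by over 1.5-fold. Measured from the median of all genes on that scale, the log2 ratios of *Wnt4*, *Wnt6* and *Wnt9a* were 0.87, 0.61 and 0.65. Scaling a library shifts all genes by about the same amount, so this distance from the median is nearly fixed by construction, and whether these ligands were higher at all depended on the scale. Under the authors' FPKM and 3 other scales (setting either the median or the 75th percentile of the genes equal, or the sum of the named rows), *Wnt4* lay between 0.86 and 0.93, *Wnt6* between 0.60 and 0.67 and *Wnt9a* between 0.63 and 0.69.

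**Figure D5:**
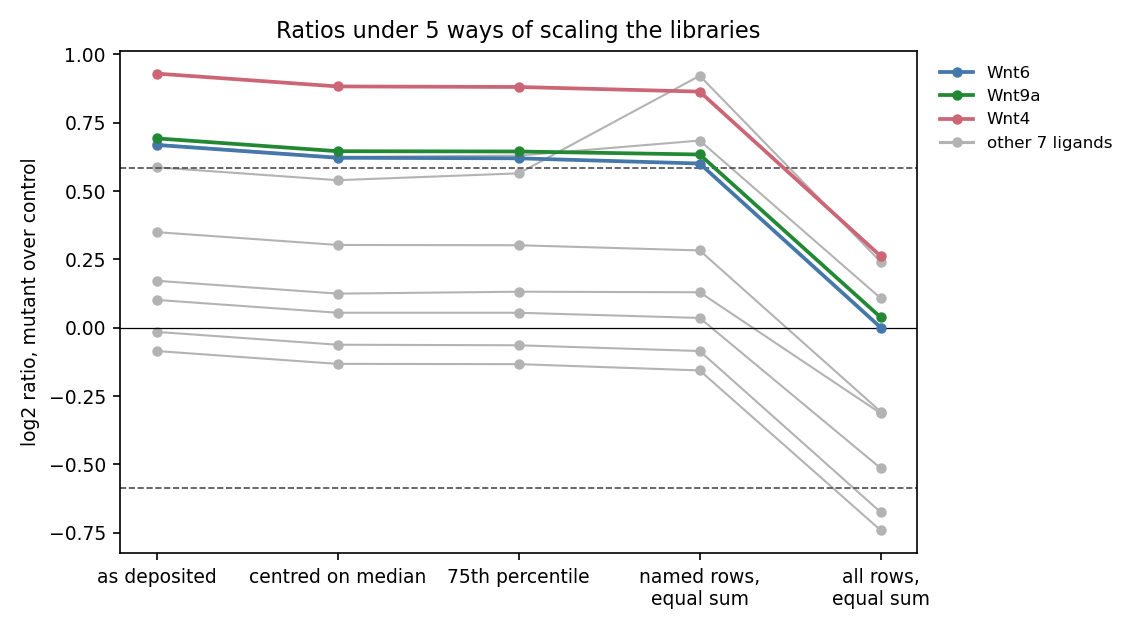
Log2 ratio of mutant to control for each ligand (one line each) under 5 scales of the libraries, with dashed lines at a fold of 1.5. Scaling all rows, unnamed ones included, to the same sum moved each line down, and *Wnt4* was 0.26 and *Wnt5a* −0.74.

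The rows of the ligands were of different origin in the files. A row could carry the gene name or a Cufflinks number as its identifier. *Wnt4* and *Wnt6* were the only members listed under the gene name in the control and under a Cufflinks number in the mutant. Of the 1872 genes read with this combination, 25.7% were higher by over 1.5-fold and 3.31% lower, with a median log2 ratio of 0.20, against 17.7% and 5.89% of the 3500 genes with a gene name in both, as for *Wnt9a*, where the median was 0.08. In the 1464 genes with the opposite combination, 6.97% were higher and 14.3% lower. The part of the row origin in the *Wnt4* and *Wnt6* ratios was not tested.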

How the data were processed

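The authors sequenced RNA of P12 optic nerves from 1 control and 1 mutant library and deposited a table of FPKM per gene for each, with the bounds of the Cufflinks interval and a status. Per the labels, TopHat, Cufflinks and mm9 were used, and versions are not given in the sources used here. Rows with merged names were split and summed per symbol. Symbols with status OK in both libraries and at least 1 FPKM in at least 1 of them were read, with 0.1 FPKM added before the log2 ratio, and a fold over 1.5 was the cutoff, as in the study. No test was possible with 1 library per genotype. Depth was read from the interval bounds of short unnamed rows (under 100 bases), of which 99.5% in the control and 100% in the mutant were whole multiples of 1 fragment within 0.01. Fragment numbers of single ligands were inferred with a transcript length at which all their interval bounds were whole fragment numbers, and were then rounded. Each Cufflinks interval describes 1 library and leaves out differences among animals. For some marker genes, such as *Aldh1a2* in the control (77.4 FPKM, interval 68.7 to 74.4), the value lay outside its own interval. All 10 ligands lay inside theirs in both libraries.

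The ligands and gene lists were chosen with earlier results of these data known. Every ligand is named, as are *Porcn*, *Wls*, *Lrp5*, *Lrp6*, *Gpr124*, *Reck* and *Tcf7l2*, and at most 4 genes per other list that passed the cutoff with separate intervals. Ligands listed at 0 and the overlapping *Fbxl14* were named after their values were seen. Alternatives concerned the pseudocount, filter, cutoff, scale, row choice and status. The ratio computation was tested on simulated data. Scripts ran in Python 3.11.15 with pandas 2.3.3, numpy 2.4.6 and scipy 1.17.1, and plots were drawn with matplotlib 3.10.9. Promoter sequences came from RefSeq (GRCm38.p6), and no position was converted between builds.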

Additional observations from a re-analysis of the deposited data

How the results depend on the processing

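Scaling all rows, unnamed ones included, to a sum of 1000000 gave 0 ligands higher and 2 lower by over 1.5-fold, a median log2 ratio over the 10 of −0.15 in place of 0.47 and a log2 ratio of their summed FPKM of −0.22 in place of 0.45. On that scale 640 of all genes read were higher and 7398 lower, against 2185 and 1210. The larger share of unnamed rows in the mutant is part of this scale by construction. Without a filter on low values 5 of the 10 ligands were higher, as *Wnt2* and *Wnt10a* were then counted. In that setting 13.4% of 23853 genes were higher. With a fold above 2, 0 ligands were higher, and 975 genes were higher and 522 lower. Under the 7 other alternatives that give a ratio per ligand (2 pseudocounts, 3 scales, the highest row per symbol and rows of any status), all 10 ratios stayed within the range of their own intervals, but with a pseudocount of 1 *Wnt9a* was under the cutoff (0.56) and 2 ligands were higher. With that pseudocount 11.8% of all genes read were higher, and the median over the 10 was 0.17. With a minimum of 5 FPKM, which *Wnt9a* did not reach, 2 of 5 ligands were also higher, as were 12.2% of all genes at that minimum. No paired analysis was possible because there was 1 library per genotype. Levels under 0.11 FPKM in the control, 3 fragments on 1 kb, cannot be resolved.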

Other observations

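Neuronal and blood transcripts were higher in the mutant library, with ratios also above 0 when all rows were scaled to the same sum, although 1 of 3 neuron and 2 of 6 blood markers then passed the cutoff of 1.5-fold. On the deposited scale all 3 neuron markers passed it, with *Syt1*, a synaptic vesicle protein, at 1.07 FPKM in control nerve and 3.64 in mutant nerve, *Rbfox3* at 0.658 and 1.51, and *Snap25* at 5.92 and 10.3. All 6 red blood cell markers found were also higher by over 1.5-fold, although they are 4 separate measurements, with *Hbb-b2*, a β-globin, at 29.9 and 69.0 FPKM (values above their own Cufflinks intervals) and *Alas2*, an enzyme of haem synthesis, at 0.607 and 1.39. *Hba-a1* and *Hba-a2* shared 1 row, as did *Hbb-b1* and *Hbb-bs*. Of all genes read, 15.4% were higher by over 1.5-fold on the deposited scale and 4.51% with all rows scaled to the same sum.

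Among surface epithelium markers, *Cdh1* was 13.3 and 25.5 FPKM and *Epcam* 4.78 and 2.18, so that they differed in opposite directions. Of 5 pigment cell markers, 2 reached 1 FPKM. *Dct* was 0.965 and 2.16 FPKM, whereas *Tyr* was 2.29 and 2.42 and within the cutoff. Microglia markers summed to 96.4 and 112.5 FPKM with none of 5 past the cutoff, and mural cell markers to 95.4 and 78.3 FPKM, with *Rgs5* lower (63.0 and 40.5 FPKM). Of 4 OL precursor markers, *Gpr17* was lower (235 and 156 FPKM) and 3 were within the cutoff. Of 5 skeletal muscle markers, 3 reached 1 FPKM and 2 were higher, both with overlapping intervals. All calls in this paragraph are on the deposited scale, where 15.4% of all genes read were higher and 8.52% lower. With all rows scaled to the same sum, no marker of these lists was higher by over 1.5-fold, against 4.51% of all genes read. On that scale 3 precursor, 2 mural, 1 microglia and 1 epithelium marker were lower, as were 52.1% of all genes read.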
